A study of Homo sapiens with 12 samples.

Results

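Transcripts of 10 genes that handle cellular iron were followed in RPE1 cells, an established line of human retinal pigment epithelial cells immortalised with telomerase. The genes were picked by name for their roles, with earlier results of these data known. TFRC, SLC11A2 and SLC39A14 bring iron in, and FTH1, FTL and NCOA4 store it and release it from the store. SLC40A1 lets it out, and ACO1, IREB2 and FBXL5 sense it. They are 10 of 22498 gene identifiers in the deposited count table. Each symbol belonged to 1 identifier, and all 10 genes had enough counts to be among the 13803 genes tested. Every library came from the same line with the genotype label WT, and each of 3 groups held 4 libraries. The first group (DOX+F) was given 50 nM doxorubicin, a DNA-damaging anthracycline that poisons topoisomerase II, plus 5 µM of the lipid radical scavenger ferrostatin-1. The second group (DOX) was given 50 nM doxorubicin alone, and the third (CTRL) the solvent DMSO. Exposure ran for 72 h, with fresh ferrostatin-1 at 48 h. No group had ferrostatin-1 without doxorubicin, so its effect could be read in doxorubicin-treated cells only. The labels do not state whether the 4 replicates of a group were separate cultures, so p-values cover the spread between these samples, which may be technical.

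Most cells take up iron as the transferrin complex through the transferrin receptor. Iron that is not used at once is stored in ferritin, a cage of heavy and light chains, and ferritin is delivered to the lysosome by the receptor NCOA4. The level of free iron is read by the iron regulatory proteins ACO1 (IRP1) and IREB2 (IRP2). In iron-poor cells they bind a short hairpin, the iron-responsive element, which blocks translation when it lies in the 5′ UTR, as in both ferritin mRNAs, and protects the mRNA from decay when it lies in the 3′ UTR of TFRC. FBXL5 is the iron-binding subunit of a ubiquitin ligase that marks IREB2 for destruction when iron is plentiful. Ferroptosis, a death by lipid peroxidation that ferrostatin-1 blocks, depends on iron. Because the 5′ element acts on translation, RNA counts do not report what it does to ferritin protein.

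The hairpins are shown here for their place. Among the matched members, it separates those whose RNA level the regulatory proteins can act on from those whose translation they act on. They were found in GENCODE 29 transcripts on GRCh38 as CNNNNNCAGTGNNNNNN, read in the sense direction, where the 5 bases after the first C had to pair with the last 5 bases, G to T pairs included. Capitals mark the 6-base loop, and 3 bases are shown on either side of the 17-base match.
FTH1, 5′ UTR, chr11:61967577-61967599, minus strand: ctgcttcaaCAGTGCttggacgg
FTL, 5′ UTR, chr19:48965338-48965360, plus strand: ttgcttcaaCAGTGTttggacgg
SLC40A1, 5′ UTR, chr2:189580664-189580686, minus strand: cttcagctaCAGTGTtagctaag
TFRC, 3′ UTR, chr3:196050982-196051004, minus strand: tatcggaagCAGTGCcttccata
TFRC, 3′ UTR, chr3:196050578-196050600, minus strand: tatcgggagCAGTGTcttccata
TFRC, 3′ UTR, chr3:196050513-196050535, minus strand: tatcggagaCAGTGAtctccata
TFRC, 3′ UTR, chr3:196050466-196050488, minus strand: tatcgggaaCAGTGTttcccata
The FTH1 and FTL elements were identical at 21 of the 23 bases shown, and differed by C1T and C15T, counted from the first base shown with the FTH1 base first. The FTL match lay in its only protein-coding transcript, the FTH1 match in 7 of 8, the TFRC matches in 3 of 4 and the SLC40A1 match in 1 of 5. Over whole transcripts, which differ in length, 291 of 19702 protein-coding genes (1.48%) held the motif, and 4 of the 10 members did. Both ferritin genes and TFRC were known carriers before the search, so setting these shares side by side is no test. In the matched members, TFRC included, any element that departs from this motif would not be shown. For the other 6 members the result says only that these letters were not in the annotated transcripts. SLC11A2 is among them, although some of its transcripts carry a 3′ element, as described below.

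Libraries held 20243458 to 24879198 counts with both compounds, 17980433 to 20607019 with doxorubicin and 17523920 to 19650696 in the control. The 10 genes together took 0.673% ± 0.0204 of all counts with both compounds, 0.66% ± 0.0305 with doxorubicin and 0.466% ± 0.0128 in the control (SD, n = 4 each). CDKN1A, the p21 cell-cycle inhibitor, averaged 1452 ± 32.2 and 1508 ± 55.7 CPM (counts relative to library size, scaled by TMM factors) with both compounds and with doxorubicin, against 191 ± 9.91 CPM in the control, and MKI67, a marker of dividing cells, averaged 28.8 ± 4.31 and 31.3 ± 4.03 CPM against 754 ± 120 CPM. Mitochondrially encoded genes took 3.74% ± 0.216 and 3.97% ± 0.0861 of counts in the treated groups and 2.91% ± 0.123 in the control. Control replicate 1 stood further from the other control libraries (chi-square per degree of freedom 8.26 to 14.2) than these did from each other (3.73 to 5.03), and leaving it out changed no call among the members. Of 8 pigment epithelium markers, MITF (43.8 to 55.1 CPM) and OTX2 (10.5 to 18.7 CPM) were expressed, BEST1 and PMEL stayed at or below 1.8 CPM, TYR, RLBP1 and LRAT had at most 7 counts, and RPE65 was not analysed here. Of 4 epithelial markers, KRT8 and KRT18 summed to 1063 to 1174 CPM with both compounds, 1083 to 1127 CPM with doxorubicin and 547 to 639 CPM in the control together with at most 3 counts each of EPCAM and CDH1. The summed immune list ran at 77.5 to 88 CPM, 70.9 to 78.4 CPM and 62 to 69.9 CPM in the same order, nearly all of it CD68, with PTPRC and CD14 at 12 counts or fewer. Fibroblast markers summed to 15.9 to 22.4, 19.1 to 23.1 and 29.3 to 35.2 CPM, and the endothelial and erythroid markers analysed here to at most 0.565 CPM. The part of these shifts in the results was not tested, and the fall of MKI67 and the change of iron genes cannot be told apart, as they occurred in the same libraries. In bulk RNA, fewer cells with a transcript and less of it per cell cannot be told apart either.

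Doxorubicin against the control asks how 72 h of the drug changed the iron genes. Both ferritin chains, the ferritin receptor NCOA4 and the sensor ACO1 rose by 1.4- to 1.74-fold, SLC11A2 and FBXL5 by 1.14-fold each, and the transferrin receptor and SLC39A14 fell. By edgeR's quasi-likelihood test with Benjamini-Hochberg adjustment over all tested genes, at an adjusted p below 0.05, 8 of 10 members were called, where 64.0% of all tested genes were. Of these 6 rose, where 32.2% of all genes did, and 2 fell, where 31.8% did. In 6 members no library of one group overlapped the other group, as in 58.7% of all genes, with 5 higher (29.4% of all genes) and 1 lower (29.3%), so a call by itself did not set a gene apart in this comparison. The members' median log2 fold change was 0.19, and that of all tested genes was -0.01. Ranked by log2 fold change, FTH1 stood at the 91.5th percentile of all genes, FTL at the 89.9th, ACO1 at the 82.7th and NCOA4 at the 82nd. Scaling by library totals alone put the median of all genes at -0.155 and the higher share of calls at 36.1%, against 50.3% with TMM, and there the rises of SLC11A2 (0.05, adjusted p = 0.379) and FBXL5 (0.045, adjusted p = 0.558) were not called.

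**Figure D1:**
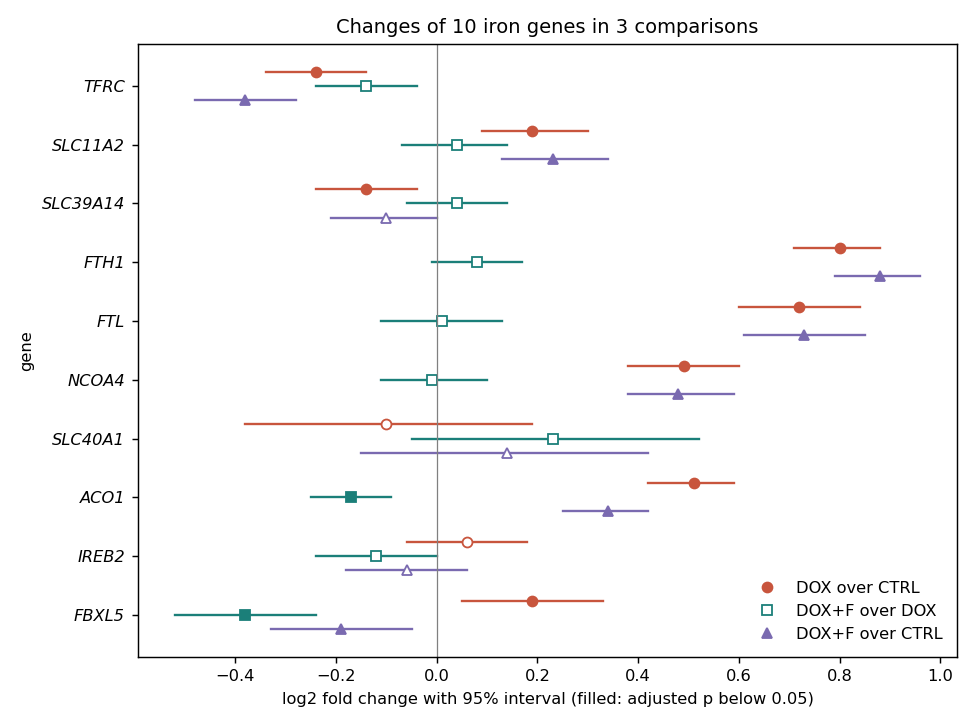
Log2 fold changes of the 10 genes (horizontal axis) with 95% intervals for doxorubicin over control, both compounds over doxorubicin and both compounds over control. Filled symbols passed an adjusted p of 0.05. FTH1 and FTL lie furthest to the right in both comparisons with the control, and ACO1 and FBXL5 carry the filled symbols between the 2 treated groups.

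Both compounds against doxorubicin alone asks what ferrostatin-1 changed in treated cells. FBXL5 and ACO1 were lower, FBXL5 by 0.38 and ACO1 by 0.17 on the log2 scale, and the other 8 members were not called. The 2 calls, both lower, compare with 5.01% of all tested genes called in either direction and 2.85% called lower. The same 2 members had no overlap between groups, where 10.9% of all genes had none (5.23% higher and 5.66% lower). The median change was 0 for the members and 0 for all genes. FBXL5 stood at the 5.29th percentile of all log2 fold changes, ACO1 at the 13.8th and TFRC, which was not called, at the 16.8th. This comparison and the preceding one share the doxorubicin libraries.

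Both compounds against the control called 7 of 10 members, where 64.3% of all tested genes were called. FTH1, FTL, NCOA4, ACO1 and SLC11A2 rose, 5 members where 32.0% of genes did, and TFRC and FBXL5 fell, 2 members where 32.3% did. The same 7 did not overlap between groups, as for 57.7% of all genes (28.5% higher and 29.2% lower). The median was 0.18 in the members and -0.02 in all genes, and with library totals alone the median of all genes was -0.169 and the higher share of calls 35%, against 49.8% with TMM. These values share their libraries with the other comparisons and are no separate evidence.

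**Figure D2:**
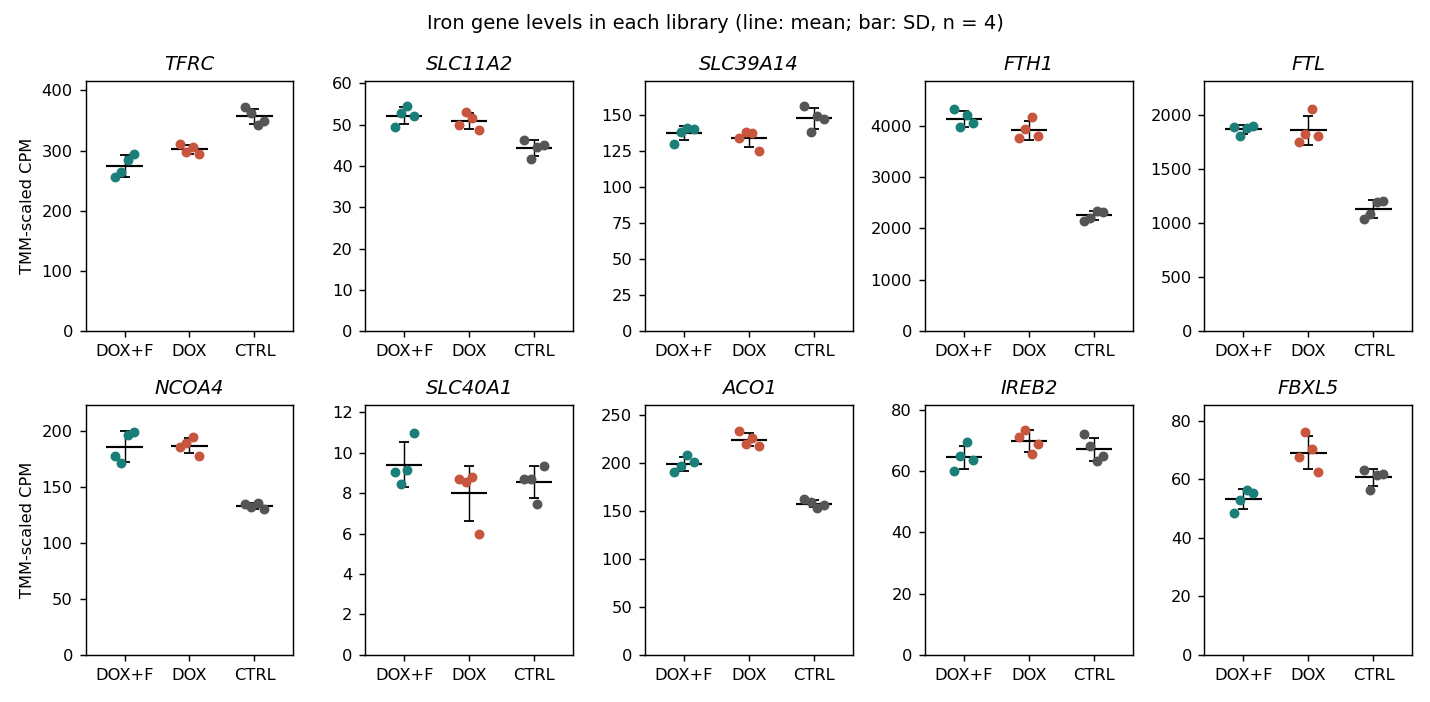
TMM-scaled CPM (vertical axes, each starting at 0) of the 10 genes in every library, with DOX+F left, DOX in the middle and CTRL right. Points are libraries, lines are means and bars are SD (n = 4). FTH1 and FTL lie apart from the control in all 8 treated libraries, and FBXL5 is lowest with both compounds.

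Per kilobase of transcript, the ferritin genes held the highest levels of the 10. FTH1 (ENSG00000167996.16) encodes the heavy chain, the subunit that oxidises iron for storage. Its level was 4317, 3976, 4205 and 4047 CPM in the libraries with both compounds, 3767, 3927, 4167 and 3790.2 CPM with doxorubicin, and 2146, 2199.9, 2336 and 2326 CPM in the control. All 8 treated libraries lay above all 4 control libraries, while the treated groups overlapped each other. FTH1 rose 1.74-fold with doxorubicin over control (log2 0.80 ± 0.041 SE, adjusted p = 2.58e-10) and 1.84-fold with both compounds over control (0.88 ± 0.041, adjusted p = 8.51e-11). Between both compounds and doxorubicin the log2 difference was 0.08, with a 95% interval of -0.01 to 0.17 (adjusted p = 0.373). Its exons share 1267 bases with BEST1 on the opposite strand, and since the library kit does not mark strand, reads of the 2 genes cannot be told apart there. BEST1 was listed with 16 to 37 counts per library.

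FTL (ENSG00000087086.15) encodes the light chain, which helps the mineral core form. It had 1888, 1807, 1884 and 1899 CPM with both compounds, 1751, 1826, 2053 and 1807 CPM with doxorubicin, and 1034, 1081, 1194 and 1203 CPM in the control. Again every treated library exceeded every control library. FTL rose 1.65-fold with doxorubicin over control (0.72 ± 0.055, adjusted p = 2.63e-08) and 1.66-fold with both compounds over control (0.73 ± 0.055, adjusted p = 2.22e-08). Both compounds and doxorubicin differed by 0.01 on the log2 scale, with an interval of -0.11 to 0.13 (adjusted p = 0.969). Ferritin genes have many processed copies. The 15 rows named as FTH1 pseudogenes held 3 to 14 counts per library in total, at most 0.0212% of FTH1, and the 5 FTL rows 0 to 5 counts, at most 0.0131% of FTL. How reads that fit both a parent gene and a copy were shared out is not given in the sources used here.

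NCOA4 (ENSG00000266412.6) is the cargo receptor that carries ferritin to the lysosome, where its iron is freed. It reached 178, 171, 196 and 199 CPM with both compounds, 186, 189, 195 and 178 CPM with doxorubicin, and 135, 132, 136 and 130 CPM in the control. Treated and control libraries did not overlap. The rise over control was 1.4-fold with doxorubicin (0.49 ± 0.051, adjusted p = 7.57e-07) and 1.4-fold with both compounds (0.48 ± 0.05, adjusted p = 7.92e-07). The 2 treated groups overlapped, with a log2 difference of -0.01 and an interval of -0.11 to 0.10.

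The members that bring iron in did not move together. TFRC (ENSG00000072274.14), the transferrin receptor with the 3′ elements shown above, had 256, 264, 284 and 295 CPM with both compounds, 311, 298, 306 and 294 CPM with doxorubicin, and 372, 363, 343 and 349 CPM in the control. Every control library was above every treated library. The receptor fell to 0.848 of the control level with doxorubicin (-0.24 ± 0.047, adjusted p = 0.000433) and to 0.77 with both compounds (-0.38 ± 0.047, adjusted p = 4.98e-06). Both compounds against doxorubicin gave -0.14 (interval -0.24 to -0.04), and with 1 pair of libraries overlapping this was not called (adjusted p = 0.128). The fold in the doxorubicin comparison depended on the scaling: with library totals alone it was -0.38 (adjusted p = 4.79e-06).

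SLC11A2 (ENSG00000110911.17) is DMT1, which moves ferrous iron across the endosomal membrane. Its libraries had 49.3, 52.8, 54.4 and 52.2 CPM with both compounds, 49.9, 53.1, 51.6 and 48.7 CPM with doxorubicin, and 46.2, 41.6, 44.7 and 45.1 CPM in the control. The groups with doxorubicin lay above the control without overlap, by a small margin. The change over control was 1.14-fold with doxorubicin (0.19 ± 0.049, adjusted p = 0.00281) and 1.17-fold with both compounds (0.23 ± 0.048, adjusted p = 0.000672), and neither was called with library totals alone (0.05 and 0.08, adjusted p = 0.379 and 0.159). Some SLC11A2 transcripts carry an iron-responsive element in their 3′ UTR and others do not, and counts per gene do not separate them.

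SLC39A14 (ENSG00000104635.15) is ZIP14, a carrier for zinc, manganese and iron that is not bound to transferrin. It stood at 130, 138, 141 and 140.3 CPM with both compounds, at 134, 138, 137 and 125 CPM with doxorubicin, and at 156, 138, 149 and 147 CPM in the control. Control replicate 2 lay within the treated range, so the groups overlapped. The fall to 0.906 of the control level with doxorubicin was called (-0.14 ± 0.048, adjusted p = 0.0174), but not without doxorubicin replicate 4 (-0.11, adjusted p = 0.0607), and with library totals alone it was -0.29 (adjusted p = 9.57e-05). With both compounds it was 0.931 of the control (-0.10 ± 0.048, adjusted p = 0.0702). That value was called without control replicate 2 (-0.14, adjusted p = 0.0229), with library totals alone (-0.26, adjusted p = 0.000248), with a filter of at least 1 CPM in 4 libraries (-0.11, adjusted p = 0.0451) and after thinning to the smallest library (-0.13, adjusted p = 0.0346).

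Ferroportin, the product of SLC40A1 (ENSG00000138449.11), is the only known exporter of iron from vertebrate cells. SLC40A1 had the lowest counts of the 10, with 9.03, 8.44, 9.13 and 11 CPM with both compounds, 8.7, 8.53, 8.79 and 5.98 CPM with doxorubicin, and 8.68, 8.71, 7.48 and 9.36 CPM in the control. All 3 groups overlapped. Log2 differences were -0.10 for doxorubicin over control (interval -0.38 to 0.19, adjusted p = 0.546), 0.23 for both compounds over doxorubicin (-0.05 to 0.52, adjusted p = 0.454) and 0.14 for both compounds over control (-0.15 to 0.42, adjusted p = 0.386). With 104 to 247 counts per library the intervals were the widest of the 10 members, and a change of the size seen for SLC11A2 was not detectable here.

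Among the sensors, ACO1 (ENSG00000122729.19) encodes IRP1, a protein that serves as cytosolic aconitase while it holds an iron-sulphur cluster and binds the hairpins when it has lost it. The libraries with both compounds had 191, 197, 208 and 201 CPM, those with doxorubicin 233, 219.9, 226 and 218 CPM, and the control libraries 162, 159, 153 and 156 CPM. The 3 groups did not overlap, with doxorubicin highest and both compounds in between. ACO1 rose 1.42-fold with doxorubicin over control (0.51 ± 0.039, adjusted p = 2.54e-08) and 1.26-fold with both compounds over control (0.34 ± 0.039, adjusted p = 2.12e-06, or 0.19 and adjusted p = 0.000688 with library totals alone). With both compounds it was 0.889 of the doxorubicin level (-0.17 ± 0.038, adjusted p = 0.0174). Among fits that left out 1 library, that call was lost without doxorubicin replicate 1 (-0.15, adjusted p = 0.0708) and without replicate 1 of both compounds (-0.15, adjusted p = 0.0624).

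IREB2 (ENSG00000136381.13), which encodes IRP2, had 60, 65, 69.4 and 63.6 CPM with both compounds, 71.3, 73.6, 65.5 and 69 CPM with doxorubicin, and 72, 68.3, 63.3 and 65 CPM in the control. The groups overlapped in all 3 comparisons. Differences on the log2 scale were 0.06 for doxorubicin over control (interval -0.06 to 0.18, adjusted p = 0.398; -0.088 with library totals alone), -0.12 for both compounds over doxorubicin (-0.24 to 0, adjusted p = 0.351) and -0.06 for both compounds over control (-0.18 to 0.06, adjusted p = 0.371). With library totals alone the last was called (-0.21, adjusted p = 0.00501). IRP2 is known to be set by degradation of the protein, which these counts do not measure.

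FBXL5 (ENSG00000118564.15), the substrate-binding subunit of the ligase for IRP2, was the member that differed most between the treated groups. Its levels were 48.6, 52.9, 56.2 and 55.2 CPM with both compounds, 67.6, 76.3, 70.2 and 62.4 CPM with doxorubicin, and 63, 56.4, 61.5 and 61.7 CPM in the control. The libraries with both compounds lay below those of either other group without overlap, and the doxorubicin libraries overlapped the control by 1 library of each. With both compounds FBXL5 fell to 0.769 of the doxorubicin level (-0.38 ± 0.064, adjusted p = 0.00231), and the call held without any single library (adjusted p up to 0.00964). Against the control it was 0.877 with both compounds (-0.19 ± 0.065, adjusted p = 0.0185; -0.34 and adjusted p = 0.000271 with library totals alone), not called without replicate 1 of both compounds (-0.15, adjusted p = 0.0585). Doxorubicin over control gave 1.14-fold (0.19 ± 0.064, adjusted p = 0.0185), not called without control replicate 2 (0.15, adjusted p = 0.0681) or doxorubicin replicate 2 (0.14, adjusted p = 0.0789). FBXL5 exons share 18 bases with FAM200B on the other strand, which held 464 to 679 counts per library.

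Ratios of counts within a library compare members free of library scaling. The ratio of FTH1 to TFRC counts sets the store against the receptor. It was 16.9, 15.1, 14.8 and 13.7 with both compounds, 12.1, 13.2, 13.6 and 12.9 with doxorubicin, and 5.77, 6.06, 6.82 and 6.67 in the control. No groups overlapped. The mean log2 ratio was higher by 1.03 with doxorubicin than in the control, by 0.22 with both compounds than with doxorubicin and by 1.26 with both compounds than in the control. Each difference had a two-sided exact permutation p of 0.0286, the smallest that 4 against 4 libraries can give, and 0.0429 after adjustment over the 9 ratio comparisons. Without any 1 doxorubicin library or without replicate 1 of both compounds, the difference of both compounds over doxorubicin lost its call. It kept its sign (0.17 to 0.25, adjusted p = 0.0734 to 0.0856 by the same exact test), and the groups stayed apart. Against the control the adjusted p was 0.0515 by the exact test without any 1 doxorubicin library (doxorubicin over control, 1.01 to 1.07) and without replicate 1 of both compounds (both compounds over control, 1.2), with the groups still apart. Exact p-values of so few libraries move in coarse steps, and each adjusted p depends on all 9 comparisons. A ratio call lost in this way does not by itself mean a smaller difference.

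The ferritin chains stayed in a ratio between 1.93 and 2.29 in all 12 libraries. FTH1 counts were 2.29, 2.2, 2.23 and 2.13 times FTL counts with both compounds, 2.15, 2.15, 2.03 and 2.1 times with doxorubicin, and 2.08, 2.04, 1.96 and 1.93 times in the control. Only both compounds and the control did not overlap (log2 0.15, exact permutation p = 0.0286, adjusted 0.0429, and 0.13 with an adjusted p of 0.0515 without replicate 1 of both compounds). Doxorubicin over control (0.08) and both compounds over doxorubicin (0.07) each gave an exact p of 0.0857 and an adjusted p of 0.0964. The difference between the last pair passed without replicate 4 of both compounds (0.09, exact test, adjusted p = 0.0368).

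The ratio of the 2 hairpin-binding sensors was lower in both treated groups than in the control. With TMM scaling ACO1 rose over control (0.51 with doxorubicin, 0.34 with both compounds), while IREB2 was not called (0.06 and -0.06). IREB2 counts stood to ACO1 counts as 0.314, 0.33, 0.334 and 0.316 with both compounds, 0.306, 0.335, 0.29 and 0.317 with doxorubicin, and 0.444, 0.431, 0.413 and 0.417 in the control. Each treated library was below each control library, by 0.45 on the log2 scale with doxorubicin (mean difference -0.45, exact permutation p = 0.0286, adjusted 0.0429) and by 0.40 with both compounds (-0.40, the same p-values). By the same exact test the adjusted p was 0.0515 without any 1 doxorubicin library (doxorubicin over control, -0.49 to -0.42) and without replicate 1 of both compounds (both compounds over control, -0.38), with the groups still apart. The treated groups overlapped (0.05, exact p = 0.371, adjusted 0.371).

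**Figure D3:**
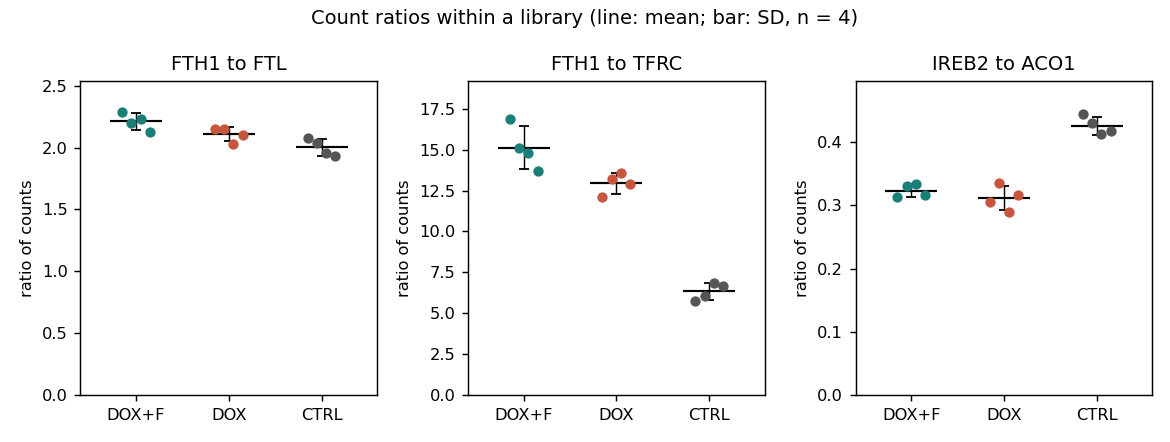
Ratios of raw counts within each library (vertical axes from 0) for FTH1 to FTL, FTH1 to TFRC and IREB2 to ACO1, with DOX+F left, DOX in the middle and CTRL right. Points are libraries, lines are means and bars are SD (n = 4). FTH1 to TFRC averages 15.1 and 12.9 in the treated groups and 6.33 in the control.

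Levels of different genes can be compared only per length of transcript, here as CPM per kilobase of the principal GENCODE transcript. FTH1 averaged 3366 ± 125 with both compounds, 3184 ± 149.6 with doxorubicin and 1832 ± 76.3 in the control, and FTL 2129 ± 47.8, 2118 ± 152 and 1284 ± 95.2 in the same order (SD, n = 4). These 2 stood far above the other 8 members, and FTH1 exceeded FTL in every library. By this length, the next places changed with treatment. NCOA4 was at 80.6 ± 5.98 with both compounds and 80.9 ± 3.04 with doxorubicin, above TFRC at 53.7 ± 3.47 and 59.2 ± 1.52, while in the control NCOA4 (57.7 ± 1.15) was below TFRC (69.8 ± 2.61). Neither order had overlapping libraries, but the order of near neighbours rests on the length chosen. Joined over transcripts, NCOA4 exons cover 4079 bases against 2307 in its principal transcript, and TFRC exons 5323 against 5111. For SLC11A2 these are 7281 against 4164 bases, and for IREB2 9501 against 6354. Orders by the joined lengths can differ and were not computed. SLC39A14 followed at 29.6 ± 1.11, 28.8 ± 1.27 and 31.8 ± 1.64, and ACO1 at 26.7 ± 0.962, 30 ± 0.896 and 21.1 ± 0.516. These neighbours overlapped only in the doxorubicin libraries. FBXL5 averaged 15.7 ± 1, 20.4 ± 1.7 and 17.9 ± 0.86. SLC11A2 at 12.5 ± 0.511, 12.2 ± 0.467 and 10.7 ± 0.473 and IREB2 at 10.1 ± 0.611, 11 ± 0.545 and 10.6 ± 0.604 overlapped in the control and were apart in both treated groups. SLC40A1 came last at 2.73 ± 0.318, 2.32 ± 0.393 and 2.49 ± 0.228.

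**Figure D4:**
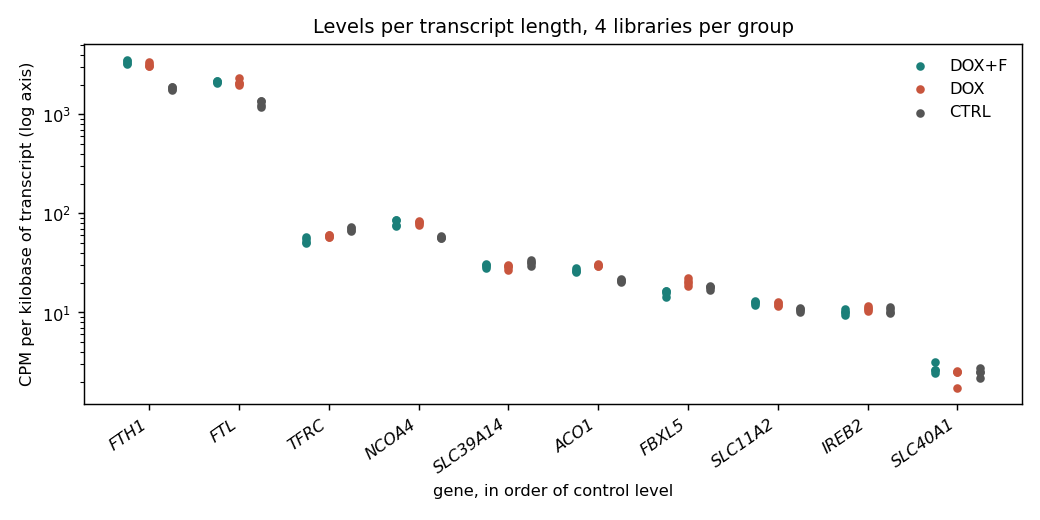
CPM per kilobase of principal transcript (vertical log axis) of the 10 genes in order of their control level, with 4 libraries per group. DOX+F is drawn left of DOX and DOX left of CTRL. The control points lie below the treated points for NCOA4 and above them for TFRC.

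Around the 10 members, 77 further genes of iron handling were listed, and 68 of them had enough counts to be tested. With doxorubicin over control 31 rose, 22 fell and 15 were not called, with a median log2 fold change of 0.15. These counts, and those of each list given next, are to be read beside the 32.2% of all tested genes that rose, the 31.8% that fell and the 64.0% that were called in this comparison. With both compounds over doxorubicin, 2 rose (HMOX1 and EPAS1), 2 fell (NEDD4L and NFE2L2) and 64 were not called, where 2.16% of all genes rose, 2.85% fell and 5.01% were called, a share near that of the list. With both compounds over control 30 rose, 19 fell and 19 were not called, where 32.0% of all genes rose, 32.3% fell and 64.3% were called.

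Of the 18 tested genes of uptake and transport, 9 rose and 7 fell with doxorubicin (median 0.16). NEDD4L, a ubiquitin ligase that acts on SLC11A2 protein, averaged 257 ± 4.19 CPM with both compounds, 289 ± 9.43 with doxorubicin and 160.1 ± 4.86 in the control (doxorubicin over control 0.85 ± 0.037, adjusted p = 3.99e-11). It was also 1 of the 2 listed genes lower with both compounds than with doxorubicin (-0.17, adjusted p = 0.0135, or -0.15 and 0.0557 without doxorubicin replicate 1). MCOLN1, a lysosomal channel that lets out iron, rose to 38.6 ± 0.579 CPM with doxorubicin, against 24.6 ± 1.89 in the control (0.65, adjusted p = 1.09e-07). EXOC6, known in mice for its part in the transferrin cycle, fell (-0.51, adjusted p = 7.14e-06), as did SLC25A37, the mitochondrial iron importer mitoferrin 1 (-0.37, adjusted p = 7.22e-05). STEAP1, of the family of metal reductases, was lower with both compounds than in the control (-0.56, adjusted p = 3.59e-05). TFR2, the second transferrin receptor, was picked out after its values were seen: it had 0.582 ± 0.268 CPM with both compounds, 1.16 ± 0.162 with doxorubicin and 3.6 ± 0.766 in the control, from 5 to 88 counts per library (doxorubicin over control -1.63 ± 0.29, adjusted p = 0.000157; both compounds over control -2.63 ± 0.3, adjusted p = 2.43e-06).

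Of 8 export genes only 4 could be tested, as CP, HEPH, HEPHL1 and HAMP had at most 7 counts in any library. With doxorubicin 1 rose, 2 fell and 1 was not called. FLVCR1, which has been described as a haem exporter, had 8.11 ± 0.382 CPM with both compounds and 7.67 ± 1.07 with doxorubicin, against 13.8 ± 0.576 in the control (doxorubicin over control -0.85 ± 0.1, adjusted p = 3.65e-06). ABCG2, a transporter of haem, porphyrins and drugs, had 1.12 ± 0.267, 1.9 ± 0.347 and 4.05 ± 0.498 CPM (-1.09 ± 0.2, adjusted p = 0.000205; both compounds over control -1.85, adjusted p = 1.44e-06). MON1A, which acts in bringing ferroportin to the surface in mouse macrophages, rose (0.43, adjusted p = 0.000102).

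Of 10 tested genes for storage, iron chaperones and ferritin turnover, 4 rose, 3 fell and 3 were not called with doxorubicin. TAX1BP1, a receptor with which NCOA4 delivers ferritin, averaged 113 ± 7.79 CPM with both compounds and 113 ± 3.38 with doxorubicin, against 67.4 ± 2.41 in the control (0.75 ± 0.051, adjusted p = 7.56e-09). The chaperones that hand iron to ferritin went the other way. PCBP2 fell by 0.60 (doxorubicin over control -0.60 ± 0.033, adjusted p = 7.28e-10) and PCBP1 by 0.41 (-0.41 ± 0.043, adjusted p = 7.53e-07). HMOX1, which frees iron from haem, stepped up in both comparisons, with 38.8 ± 0.919 CPM with both compounds, 27.8 ± 1.35 with doxorubicin and 17.8 ± 0.664 in the control. It rose by 0.64 with doxorubicin over control (adjusted p = 5.11e-08) and by a further 0.48 ± 0.05 with both compounds over doxorubicin (adjusted p = 2.73e-05). The chaperone BOLA2 is left as uncertain, because its near-identical copy BOLA2B held 294 to 560 counts per library where BOLA2 was listed at 0 to 108, and it is counted among the 30 genes higher with both compounds than in the control.

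Partners of the sensors include the rest of the FBXL5 ligase and the cytosolic machinery that equips IRP1 with its cluster. Of 11 tested, 3 rose, 6 fell and 2 were not called with doxorubicin (median -0.16). CUL1, the scaffold of the ligase, had 58.7 ± 4.49 CPM with both compounds and 59.4 ± 0.69 with doxorubicin, against 88.8 ± 4.79 in the control (-0.58 ± 0.056, adjusted p = 3.57e-07). SKP1, its adaptor, rose slightly (0.16, adjusted p = 0.00875), a call absent with library totals alone (0.019, adjusted p = 0.741). NDOR1, a reductase of cluster assembly, fell (-0.75, adjusted p = 8.55e-06), and CIAO1, which targets clusters to proteins, rose (0.35, adjusted p = 1.75e-05, or 0.21 and 0.00101 with library totals alone).

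Of 7 other transcripts described as carrying an iron-responsive element, the sequence search matched 3, and 6 were tested. With doxorubicin 4 rose and 2 were not called (median 0.47). EPAS1, the hypoxia factor HIF-2alpha, had 197 ± 10.9 CPM with both compounds, 133 ± 2.34 with doxorubicin and 50.2 ± 4.07 in the control. It rose by 1.41 with doxorubicin over control (adjusted p = 2.03e-11) and by 0.57 ± 0.054 with both compounds over doxorubicin (adjusted p = 1.15e-05). APP, the amyloid precursor, rose with doxorubicin (0.58, adjusted p = 6e-10), and CDC14A was lower with both compounds than in the control (-0.42, adjusted p = 0.0184, or -0.41 and 0.0709 with no filter on low counts).

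Mitochondrial iron-sulphur cluster assembly gave 8 rises and 2 falls among 14 tested genes with doxorubicin (median 0.22). FDXR, the reductase that feeds electrons to the assembly and a known p53 target, had the largest change of this list, with 46.1 ± 2.69 CPM with both compounds and 45.2 ± 1.68 with doxorubicin, against 14 ± 1.22 in the control (1.69 ± 0.066, adjusted p = 1.38e-11). ISCU, the scaffold on which clusters are built, rose (0.70 ± 0.048, adjusted p = 8.54e-09). The late-acting ISCA2 (-0.46, adjusted p = 0.00127) and GLRX5 (-0.34, adjusted p = 0.00172) fell.

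Of 5 transcription factors and partners that act on iron genes, 2 rose and 2 fell with doxorubicin. These are RNA counts, which do not measure the amount or activity of the proteins. NFE2L2 (NRF2), a known activator of both ferritin genes, was lower, with 63.7 ± 3.74 CPM with both compounds, 75.5 ± 6.11 with doxorubicin and 88.5 ± 4.32 in the control. Doxorubicin over control gave -0.23 (adjusted p = 0.00447, or -0.37 and 8.34e-05 with library totals alone). The step between both compounds and doxorubicin (-0.25, adjusted p = 0.0334) was not called when doxorubicin replicate 1 or 3, or replicate 1, 2 or 4 of both compounds, was left out (adjusted p = 0.0586 to 0.101). KEAP1, the protein that restrains NRF2, fell as well (-0.38, adjusted p = 4.35e-05). HIF1A rose (0.61, adjusted p = 6.48e-08), as did MYC, a factor known to repress FTH1 (0.30, adjusted p = 1.53e-05, or 0.15 and 0.00466 with library totals alone).

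**Figure D5:**
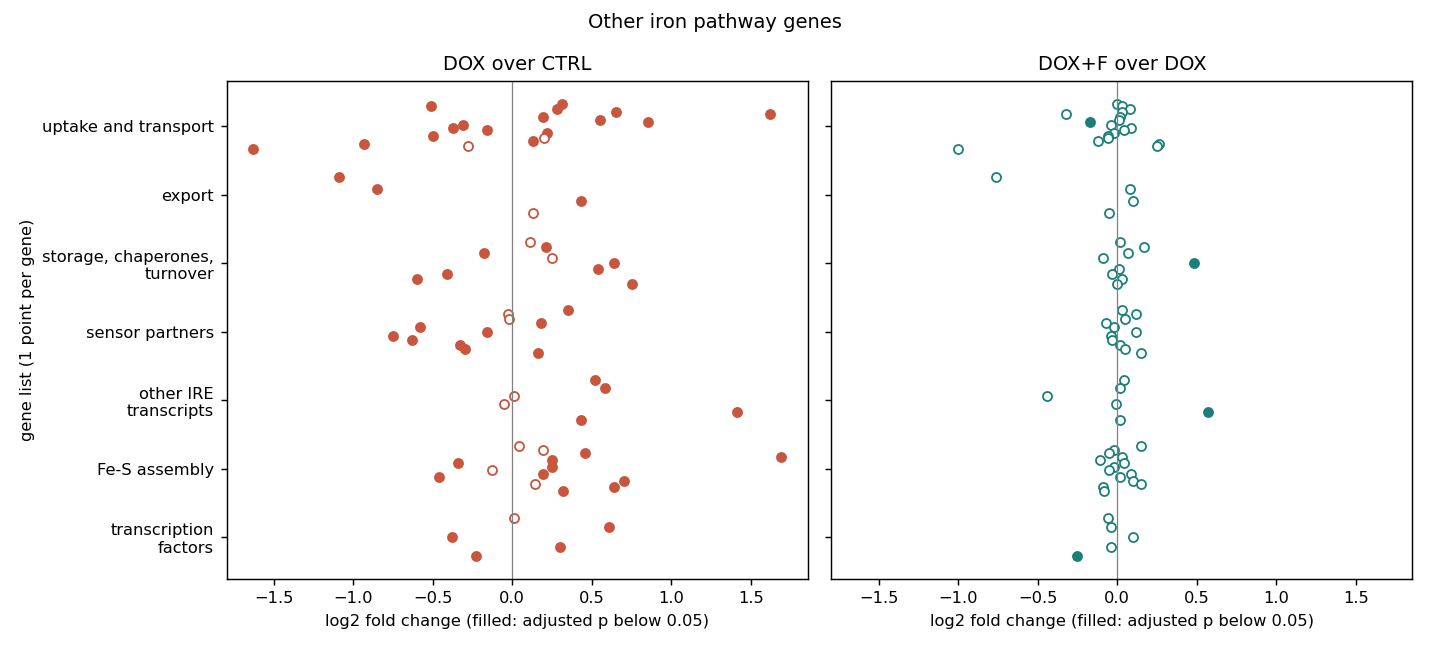
Log2 fold changes (horizontal axes) of the tested iron genes outside the 10 members, 1 point per gene by list, for doxorubicin over control (left) and both compounds over doxorubicin (right), without BOLA2. Filled points passed an adjusted p of 0.05. On the right the filled points are HMOX1 and EPAS1 above 0 and NEDD4L and NFE2L2 below 0.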

How the data were processed

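RNA of 12 RPE1 libraries, 4 per group, was sequenced from both ends after library preparation with the NEBNext Ultra kit, per the labels' protocols, which does not mark strand. The authors deposited 1 table of whole-number counts per gene identifier. Salmon, DESeq2 and the build GRCh38 appear in the submitters' processing notes, and the roles, versions and annotation release are not given in the sources used here. Column names give the group and a replicate number, and 0 of the count columns lacked a group. Library totals are given with the results, and limits from counting cover counting error only.

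Genes were filtered with filterByExpr (minimum count 10, minimum total 15), scaled by TMM and fitted with edgeR 4.0.16 (R 4.3.3) as 1 quasi-likelihood model with 1 mean per group over all 12 libraries. Two-sided p-values were adjusted within each comparison over 13803 genes (Benjamini-Hochberg), calls were made below 0.05, and standard errors were taken as the size of the log2 fold change over the root of the F statistic. Count ratios were compared by two-sided exact permutation tests, adjusted over 9 comparisons. Motifs, exon overlaps and transcript lengths came from GENCODE 29 by Python 3.11.15, and figures were drawn with matplotlib 3.10.9. DESeq2 1.42.0 and limma 3.58.1 served as alternatives, with other scalings, filters, thinning, a replicate block, added pseudogene counts and each library left out.

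The 10 members and the 7 lists of 77 other genes were chosen with earlier results of these data known. Besides the members, CDKN1A and MKI67, the text names up to 2 rising and 2 falling genes per list and comparison, those with the smallest p-values among called genes with a mean log2 CPM of at least 1. TFR2 and BOLA2 fall outside this rule and were named after their values were seen.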

Additional observations from a re-analysis of the deposited data

Results flagged for a closer look

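In 2 of 39 sets of 4 libraries examined (10 members and 3 count ratios in 3 groups), 1 library lay further from the others than Dixon's 95% critical value of 0.829 allows, and chance gives about 1 in 20. FTL in replicate 2 of both compounds was 1807 CPM, below the other libraries of its group at 1884 to 1899 CPM, a gap of 0.836 of the range. SLC40A1 in doxorubicin replicate 4 was 5.98 CPM, below the others at 8.53 to 8.79 CPM, a gap of 0.907 of the range. Without that library SLC40A1 in doxorubicin over control was 0.021 on the log2 scale (adjusted p = 0.887) in place of -0.096.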

How the results depend on the processing

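Counts of called genes and fold changes were recomputed under 11 other settings and without each of 12 libraries. Ratios, which need no scaling, were recomputed without each of their 8 libraries, and those with FTH1 also with pseudogene counts added. Members called without 1 library numbered 7 to 8 for doxorubicin over control, 1 to 2 for both compounds over doxorubicin and 6 to 8 for both compounds over control, and listed pathway genes 47 to 53, 3 to 5 and 48 to 50. Same-numbered libraries showed no pairing (residual r = -0.0954 to 0.0534 in 12 pairs, -0.146 to 0.154 in 36 pairs of other numbers), and with the number as a replicate block 1 member was called between both compounds and doxorubicin, ACO1 giving -0.17 (adjusted p = 0.0599) and NFE2L2 -0.24 (0.0704). DESeq2 called 7 pathway genes there against 4 by edgeR. Without 1 library FTH1 to TFRC differed by 0.99 to 1.07 for doxorubicin over control, 0.17 to 0.27 for both compounds over doxorubicin and 1.2 to 1.3 for both compounds over control, FTH1 to FTL by 0.06 to 0.09, 0.05 to 0.09 and 0.13 to 0.16, and IREB2 to ACO1 by -0.49 to -0.42, 0.02 to 0.09 and -0.41 to -0.38. Calls of these ratios against the control were lost at adjusted p = 0.0515 without a doxorubicin library or replicate 1 of both compounds, by the same exact test. The groups stayed apart there, and the exact p moves in coarse steps. Uncalled values near 0 changed sign. For both compounds over doxorubicin, NCOA4 was 0.001 with RLE factors, DESeq2 or no filter and -0.041 to 0.031 without 1 library, and FTL was -0.021 to 0.057 without 1 library. SLC40A1 in doxorubicin over control was -0.16 to 0.021 without 1 library. With library totals alone IREB2 in doxorubicin over control was -0.088 and SLC40A1 in both compounds over control -0.017, and called values moved for SKP1 (0.16), GLRX5 (-0.44), KEAP1 (-0.44), MYC (0.099) and CIAO1 (0.23) in both compounds over control. The causes were not tested. Among named genes with a call, TFR2 (5 to 88 counts per library), ABCG2 (20 to 96) and CDC14A (48 to 86) had few counts.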

Other observations

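A side column of the deposited table lists 71 gene symbols without saying what for, and 8 of the 10 members are among them, ACO1 and FBXL5 being the exceptions. No result uses it.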
